A study of Homo sapiens with 8 samples.

Results

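Small nucleolar RNA host genes (symbols SNHG and a number) are long noncoding RNA genes. The chromatin accessibility at their loci was compared between vehicle control cells and cells exposed to sorbitol. The members were all peaks of the peak count table, made by ATAC-seq, that overlapped the body of a RefSeq gene with such a symbol or the 30 kb on either side of it. This took in 186 of the 129536 peaks, at 29 genes, and all 186 passed the filter on low counts. They were separated into 36 gene-end peaks, within 1 kb of either end of an SNHG gene, 10 interior peaks, inside the gene body but farther than 1 kb from its ends, and 140 flank peaks. Further terms are used below: a start peak lies within 1 kb of the annotated start of transcription, a far-end peak lies at the other end of the gene, and a flank peak is upstream or downstream in the gene's own direction. Strand was known for 25 of the genes, and the 5 gene-end and 30 flank peaks that could not be given a side, mostly at SNHG6, SNHG9, SNHG15 and SNHG25, are counted separately.

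HEK293 is a human embryonic kidney line, and per the labels and the series description the cells carried the genotype eGFP-YAP, a green fluorescent protein fused to the transcriptional coactivator YAP. The library names also carry the letters "wt", and whether the line was 1 clone is not given in the sources used here. Cells were starved of serum for 1 h, and hyperosmotic stress was then applied as 200 mM sorbitol for 1 h. The count columns of the vehicle libraries carry the letters "cont_0h" and those of the sorbitol libraries "sorb_1h". No time in vehicle is given in the labels used here. A difference in time between the groups therefore cannot be told apart from sorbitol. The 4 vehicle libraries and the 4 sorbitol libraries were each made from 50000 cells, and since nothing says that they came from separate cultures, p-values measure the spread between these libraries, which may be technical.

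A small nucleolar RNA (snoRNA) is a short nuclear RNA that guides the methylation or pseudouridylation of ribosomal and other RNAs, and in human cells most are cut out of the introns of a host gene after splicing. The host may encode a protein, often one of the translation machinery, or may be a noncoding gene such as the SNHG genes, whose spliced RNA in many cases is degraded by nonsense-mediated decay while the intronic snoRNA is kept. Many snoRNA hosts start transcription at a C within a run of pyrimidines, the terminal oligopyrimidine motif that they share with ribosomal protein genes. ATAC-seq counts insertions of a transposase into open DNA, so a peak at such a gene reports how accessible its promoter or another element is and does not report the amount of RNA. Of the 29 genes, 15 held 1 annotated snoRNA, SNHG1 held 9, SNHG14 held 84 and SNHG27 held 0.

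The libraries held 11522266 to 19831471 counts in peaks, and each sorbitol total lay below each vehicle total (14355727 at most against 14757015 at least). The first principal component of log2 CPM (46.1% of the variance) separated all 4 vehicle libraries from all 4 sorbitol libraries, while the second (11.2%) placed vehicle 4 at -81.3 and sorbitol 4 at 83.8, with the other 6 between -42.0 and 28.8. Those 2 libraries thus stood apart from the rest of their groups, and the main counts below are given with and without them. A change was called at a Benjamini-Hochberg adjusted p under 0.05 in edgeR's quasi-likelihood test over 129487 peaks, which called 29.1% of them, 16.0% higher and 13.1% lower with sorbitol. Levels are counts divided by the library's total counts in peaks, as CPM, not corrected for peak width, and fold changes are sorbitol over vehicle. Over the whole table the log2 fold changes had a median of 0.01, but of 0.18 when libraries were scaled on gene-end peaks only, so directions at gene ends are relative to the scaling.

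The promoters below are those of 4 lower start peaks and 2 little changed ones, to be read side by side. The 4 have the largest changes among lower start peaks whose vehicle and sorbitol CPM did not overlap. The 2 are the least changed start peaks among the genes described in full. At the start, SNHG32 (log2 fold change -0.51) and SNHG16 (-0.39) fell more than SNHG7. Their groups overlapped, and their promoters are not printed. Each run is 300 bases, 250 before and 50 from the annotated start on, written 5′ to 3′ in the direction of the gene, from RefSeq on GRCh38.p14. Capitals mark the start base, the unbroken run of C and T after it where the start is a C and the run has at least 4, and matches to the motifs searched. The 4 lower ones are SNHG19 (chr16:2155309-2155608 on the minus strand), SNHG30 (chr17:35567864-35568163 on the plus strand), SNHG29 (chr17:16438737-16439036 on the plus strand) and SNHG7 (chr9:136728135-136728434 on the minus strand).
SNHG19: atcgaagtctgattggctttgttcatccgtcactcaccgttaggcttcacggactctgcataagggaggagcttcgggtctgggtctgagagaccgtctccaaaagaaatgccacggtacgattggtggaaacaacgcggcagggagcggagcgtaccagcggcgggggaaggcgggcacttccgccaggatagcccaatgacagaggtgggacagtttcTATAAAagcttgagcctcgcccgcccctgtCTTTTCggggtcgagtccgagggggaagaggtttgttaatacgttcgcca
SNHG30: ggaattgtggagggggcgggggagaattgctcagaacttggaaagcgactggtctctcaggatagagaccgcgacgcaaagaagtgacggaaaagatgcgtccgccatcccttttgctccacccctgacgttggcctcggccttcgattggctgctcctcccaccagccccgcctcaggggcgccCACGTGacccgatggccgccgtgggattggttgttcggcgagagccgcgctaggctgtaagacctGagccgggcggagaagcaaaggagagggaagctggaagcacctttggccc
SNHG29: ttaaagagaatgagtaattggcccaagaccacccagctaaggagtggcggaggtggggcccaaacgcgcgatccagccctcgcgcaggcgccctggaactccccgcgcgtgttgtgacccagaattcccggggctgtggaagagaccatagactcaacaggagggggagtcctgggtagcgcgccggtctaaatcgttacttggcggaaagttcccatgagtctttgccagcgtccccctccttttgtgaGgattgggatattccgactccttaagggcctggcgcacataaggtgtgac
SNHG7: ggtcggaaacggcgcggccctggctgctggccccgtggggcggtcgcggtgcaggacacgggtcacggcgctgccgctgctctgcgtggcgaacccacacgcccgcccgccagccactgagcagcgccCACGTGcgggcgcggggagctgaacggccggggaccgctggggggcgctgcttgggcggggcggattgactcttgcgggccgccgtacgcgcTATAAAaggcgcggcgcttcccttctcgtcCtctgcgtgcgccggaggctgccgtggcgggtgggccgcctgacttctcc
The 2 least changed ones are SNHG5 (chr6:85678684-85678983 on the minus strand) and SNHG12 (chr1:28581824-28582123 on the minus strand).
SNHG5: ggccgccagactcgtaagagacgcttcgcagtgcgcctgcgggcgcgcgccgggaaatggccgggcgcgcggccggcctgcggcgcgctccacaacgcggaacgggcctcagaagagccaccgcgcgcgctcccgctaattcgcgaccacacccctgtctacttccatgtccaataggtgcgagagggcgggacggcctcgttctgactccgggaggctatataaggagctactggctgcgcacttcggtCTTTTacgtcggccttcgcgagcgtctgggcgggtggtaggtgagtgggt
SNHG12: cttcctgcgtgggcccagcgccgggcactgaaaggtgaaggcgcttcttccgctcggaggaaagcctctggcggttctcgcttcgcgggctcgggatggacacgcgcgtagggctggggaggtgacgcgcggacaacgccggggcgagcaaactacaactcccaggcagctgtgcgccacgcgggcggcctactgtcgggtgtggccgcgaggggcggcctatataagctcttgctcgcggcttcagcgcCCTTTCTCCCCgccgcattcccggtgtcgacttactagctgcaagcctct
Of these 6 windows, the one of SNHG7 overlapped another annotated gene, LOC124900276. A C at the start base followed by at least 4 C or T was present in 6 of the 25 SNHG promoters that matched the table (24%), at SNHG4, SNHG5, SNHG12, SNHG18, SNHG19 and SNHG32, against 4.07% of all 35116 promoters; this rule was chosen after the sequences were seen. The run was present both where the start peak was lower (SNHG19, SNHG32) and where it was not called (SNHG5, SNHG12). The letters CTTTTC in the sense direction within 20 bases of the start were found in 4 SNHG promoters (16%, against 2.00% of all), and CTTTCC in 1 (4%, against 2.53%). TATAAA, a form of the TATA box, was searched on both strands, as were the remaining motifs. It was in 4 (16% against 11.5%), including SNHG7 and SNHG19, where it begins at -30 from the start. The similar letters TATATAAG stand upstream of the start in the SNHG5 and SNHG12 windows printed above. The search for TATAAA does not match them, and they were not counted. CACGTG, the E-box, was in 2 (8% against 7.26%), SNHG30 at -65 and SNHG7 at -122. CCGGAAG, the ETS core, was in 2 (8% against 10.3%), and TGACGTCA (CRE, 1.85% of all) and TGANTCA (AP-1, 7.71% of all) were in 0 of the 25. Where windows hold no match, those letters are not in these 300 bases and nothing more.

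With sorbitol, 9 of the 23 SNHG start peaks (at 22 genes) were less accessible and 0 were more accessible. The lower share, 39.1%, lay beside 37.3% of all gene-start peaks called lower and 7.56% called higher, and the median log2 fold change was -0.13 against -0.18. The SNHG share was therefore close to that of gene starts in general. With libraries scaled on gene-end peaks, 4 SNHG starts were called higher and 4 lower and the SNHG start median was 0.04, so the median flips sign with this scaling; with a loess offset, which removes any trend with peak strength, 4 were called higher and 7 lower. Without vehicle 4 and sorbitol 4, 11 were lower and 0 higher.

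The largest decrease at a start was at SNHG19, host of SNORD60, whose start peak (chr16:2155210-2155934) also covers the start of TRAF7, a ubiquitin ligase gene. It had 50.4, 47.7, 44.9 and 39.7 CPM in vehicle 1 to 4 and 29.7, 28.5, 27 and 24.6 CPM in sorbitol 1 to 4. Every sorbitol library lay below every vehicle library (log2 fold change -0.82, SE 0.09, adjusted p = 3.75e-10). SNHG30 (chr17:35567480-35568870) had 18.9, 20.1, 20.1 and 17.3 CPM in vehicle 1 to 4 and 15, 14.3, 12.7 and 16.8 CPM in sorbitol 1 to 4. The groups did not overlap (log2 fold change -0.46, SE 0.10, adjusted p = 0.000684). At SNHG29 (chr17:16438392-16439254), host of SNORD49A and SNORD49B, the peak had 41.8, 42, 35.9 and 32.9 CPM in vehicle 1 to 4 and 28.2, 32.3, 29.7 and 29.9 CPM in sorbitol 1 to 4. All sorbitol values again lay below all vehicle values (log2 fold change -0.43, SE 0.09, adjusted p = 0.000262).

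SNHG7, host of SNORA17A and SNORA17B, had a start peak (chr9:136727821-136729134) at 20.7, 21, 21.6 and 21.6 CPM in vehicle 1 to 4 and 16.2, 19.6, 16.3 and 17.1 CPM in sorbitol 1 to 4. The 2 groups did not overlap (log2 fold change -0.38, SE 0.10, adjusted p = 0.0025). SNHG25, whose strand was not given, is so short (340 bp) that its peak (chr17:64145538-64146738) covers the whole gene with SNORA50C and SNORD104. That peak had 33.9, 35.4, 32.7 and 29.7 CPM in vehicle 1 to 4 and 24.4, 28.4, 27.4 and 28.4 CPM in sorbitol 1 to 4, again without overlap (log2 fold change -0.36, SE 0.09, adjusted p = 0.00162). SNHG32, host of SNORD48, had 18.8, 17.3, 17.3 and 13.3 CPM in vehicle 1 to 4 and 13.9, 10.3, 12.8 and 12.7 CPM in sorbitol 1 to 4 at its start (chr6:31834278-31835270). The groups overlapped, and the peak, picked for its values, was called lower (log2 fold change -0.51, SE 0.11, adjusted p = 0.000553).

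**Figure D1:**
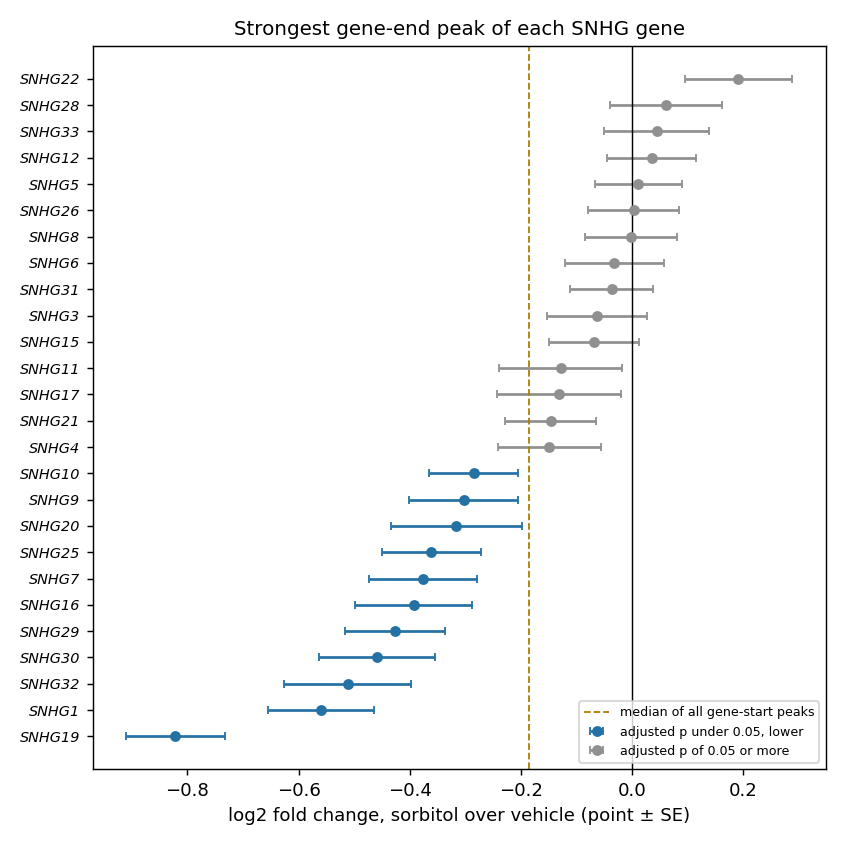
Log2 fold change (sorbitol over vehicle, point ± SE from the edgeR fit, 4 libraries a group) of the strongest gene-end peak of each of 26 SNHG genes, 1 row per gene; blue points passed the adjusted threshold as lower, grey ones did not pass, and the dashed line is the median of all gene-start peaks. The points run from SNHG19 (-0.82) to SNHG22 (0.19), 11 are called lower and 0 higher.

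The 5 SNHG gene-end peaks with the highest CPM lie at SNHG31, SNHG10, SNHG5, SNHG12 and SNHG21, and of these 5 the peak at SNHG10 was called lower. SNHG31 shares its peak (chr2:214808869-214810432) with the start of BARD1, the partner of BRCA1. It had 80.7, 78.6, 80.6 and 85.2 CPM in vehicle 1 to 4 and 79.1, 82.6, 85.4 and 88.1 CPM in sorbitol 1 to 4, with overlapping groups (log2 fold change -0.04, SE 0.07, adjusted p = 0.762). SNHG10, beside GLRX5, a mitochondrial iron-sulfur protein gene (chr14:95534414-95535455), had 68.5, 66.7, 66.8 and 60.9 CPM in vehicle 1 to 4 and 62.7, 56.5, 51.6 and 57.7 CPM in sorbitol 1 to 4. Its groups overlapped, and the fit called it lower (log2 fold change -0.28, SE 0.08, adjusted p = 0.005). SNHG5, host of SNORD50A and SNORD50B, had 52.4, 54.4, 54.2 and 53.2 CPM in vehicle 1 to 4 and 55.5, 55.3, 56.7 and 60.9 CPM in sorbitol 1 to 4 at chr6:85678442-85679576. Here all sorbitol CPM values lay above all vehicle values, but after TMM scaling the log2 fold change was 0.01 (SE 0.08, adjusted p = 0.935). SNHG12 (chr1:28581172-28582533), host of 4 annotated snoRNAs, had 52.9, 56.2, 49.4 and 50.1 CPM in vehicle 1 to 4 and 53.9, 57.4, 53.9 and 61 CPM in sorbitol 1 to 4, with overlap and no call (log2 fold change 0.04, SE 0.08, adjusted p = 0.789). SNHG21 (chr15:82749698-82751072) had 50.6, 50.1, 50.5 and 44.7 CPM in vehicle 1 to 4 and 43.2, 48.6, 46.5 and 49 CPM in sorbitol 1 to 4, also with overlap (log2 fold change -0.15, SE 0.08, adjusted p = 0.18); without vehicle 4 and sorbitol 4 it was called lower (-0.24, adjusted p = 0.0194).

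Among the remaining strongest gene-end peaks, those of SNHG16 (log2 fold change -0.39), SNHG20 (-0.32) and SNHG9 (-0.30) were called lower with overlapping groups; the SNHG9 peak also covers RPS2, a ribosomal protein gene. The SNHG9 call was lost without vehicle 1, vehicle 2 or sorbitol 3 (adjusted p = 0.0606, 0.0538 and 0.101) and the SNHG20 call without vehicle 1, vehicle 2, sorbitol 2 or sorbitol 3 (0.137, 0.166, 0.107 and 0.102), and both were lost with library totals as the scaling. Those of SNHG3, SNHG4, SNHG6, SNHG8, SNHG11, SNHG15, SNHG17, SNHG22, SNHG26, SNHG28 and SNHG33 were not called and ranged from -0.15 at SNHG4 to 0.19 at SNHG22; SNHG4 was called lower without vehicle 4 (-0.23, adjusted p = 0.0496) and without vehicle 4 and sorbitol 4 (-0.26, adjusted p = 0.0307). Of the starts with a protein-coding start within 1 kb, 5 of 10 were lower, and of those without one 4 of 13. By level, 6 of 12 starts with a mean of 10 to 30 CPM were lower (45.7% of all starts at that level lower, 7.20% higher), as were 3 of 10 with 30 to 100 CPM (47.7% and 4.94% of all). These CPM ranges were chosen after the data were seen. With scaling on gene-end peaks, the strongest peaks of SNHG7, SNHG9, SNHG10, SNHG16, SNHG20 and SNHG25 were no longer called lower, those of SNHG5, SNHG12, SNHG22 and SNHG33 were called higher, and those of SNHG1, SNHG19, SNHG29, SNHG30 and SNHG32 were called lower as before. With the loess offset, those of SNHG5, SNHG12, SNHG22 and SNHG31 were called higher and those of SNHG9, SNHG10 and SNHG20 were no longer called (adjusted p = 0.171, 0.384 and 0.166).

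Over all 36 SNHG gene-end peaks, 14 were lower (38.9%) and 1 higher, beside 32.8% and 8.74% of all gene-end peaks; 16 were lower and 1 higher without vehicle 4 and sorbitol 4, and 7 were lower and 5 higher with scaling on gene-end peaks. Among the gene ends of all long noncoding RNAs 26.8% were lower and 9.92% higher, and among those of protein-coding genes 39.6% and 6.49%. In CPM, all 4 sorbitol libraries lay below all 4 vehicle libraries at 9 of the 36 and above them at 4 (all gene-end peaks: 24.5% and 11.1%). Over all 186 SNHG peaks this held at 47 and 20 (all tested peaks: 9.47% and 17.3%). Most SNHG gene ends were shared: 28 of the 36 peaks also lay within 1 kb of an end of another gene, 20 of them a snoRNA or small Cajal body RNA. Among the 8 that did not, 2 were lower. The share of all counts that fell in SNHG gene-end peaks was 0.0960% ± 0.00325 with vehicle and 0.0888% ± 0.00223 with sorbitol (SD, n = 4 each). The ranges of that share overlapped, with the highest sorbitol library (0.0919%) above the lowest vehicle library (0.0918%).

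**Figure D2:**
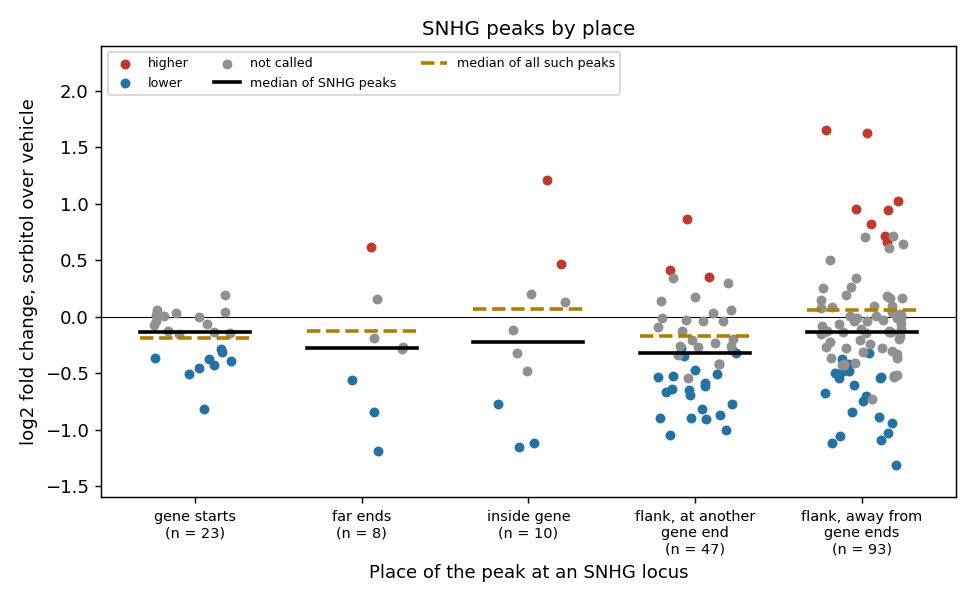
Log2 fold change of SNHG peaks by their place at the locus, 1 point per peak, coloured by call at an adjusted p under 0.05. Black bars are the medians of the SNHG peaks drawn and dashed bars those of all comparable peaks. Some interior peaks drawn lie at ends of other genes, while their dashed bar leaves such peaks out. The 5 gene-end peaks whose side was not known, 2 of them called lower, are not drawn. Lower peaks occur in each place, and the start peaks hold 0 higher calls.

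At the far end of the gene, 3 of 8 peaks were lower and 1 was higher (median -0.28 on the log2 scale); of all gene-end peaks away from every start, 24.5% were lower and 10.9% higher. SNHG3, host of SNORA73A and SNORA73B inside the RCC1 locus, had unequal values at its 2 ends. Its far-end peak (chr1:28510450-28511969) had 36.6, 36.2, 37.1 and 36.6 CPM in vehicle 1 to 4 and 20.2, 20.9, 21.8 and 23.1 CPM in sorbitol 1 to 4, with no overlap (log2 fold change -0.85, SE 0.09, adjusted p = 9.96e-11). Its start peak (chr1:28505552-28506654) had 45.4, 39.9, 35.7 and 35.2 CPM in vehicle 1 to 4 and 45.1, 35.9, 36.3 and 41 CPM in sorbitol 1 to 4, with overlap and no call (log2 fold change -0.06, SE 0.09, adjusted p = 0.651). SNHG7 was lower at both ends, and its far end (chr9:136723661-136723940), which also lies at DIPK1B, had 3.88, 4.08, 5.04 and 4.34 CPM in vehicle 1 to 4 and 1.48, 2.15, 1.73 and 2.58 CPM in sorbitol 1 to 4. These groups did not overlap (log2 fold change -1.19, SE 0.21, adjusted p = 1.85e-05). SNHG12 had the higher call, at a peak (chr1:28577407-28577633) that also lies at TRNAU1AP, a selenocysteine tRNA factor gene. It had 6.31, 4.02, 5.4 and 4.95 CPM in vehicle 1 to 4 and 6.77, 9.24, 9.1 and 8.36 CPM in sorbitol 1 to 4, again without overlap (log2 fold change 0.62, SE 0.15, adjusted p = 0.00142).

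SNHG1, the host with 9 snoRNAs, was lower at both ends. Its far end (chr11:62850400-62851835) had 27.5, 29.8, 27 and 29.4 CPM in vehicle 1 to 4 and 22.9, 22, 16.8 and 19.9 CPM in sorbitol 1 to 4, with every sorbitol library below every vehicle library (log2 fold change -0.56, SE 0.09, adjusted p = 8.86e-06). Its start (chr11:62855635-62856374) is shared with SLC3A2, the heavy chain of amino acid transporters, and had 24.6 ± 2.84 CPM with vehicle and 20.2 ± 0.392 CPM with sorbitol (SD, n = 4 each); it too was lower without overlap (log2 fold change -0.37, SE 0.10, adjusted p = 0.00294). The far-end peaks of SNHG3, SNHG7 and SNHG12 and the start of SNHG1 were picked for description after their values were seen.

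**Figure D3:**
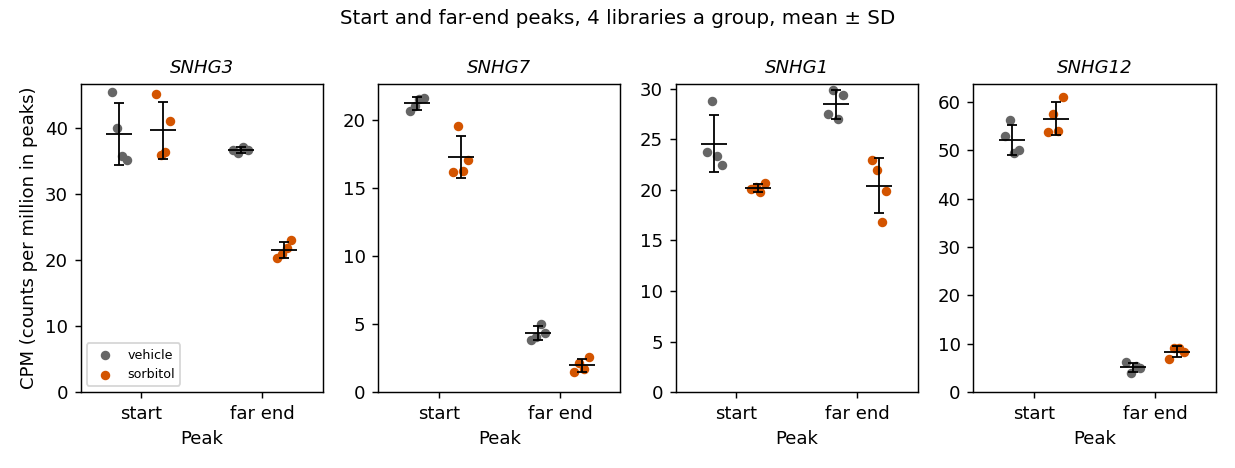
CPM of the start and far-end peaks of SNHG3, SNHG7, SNHG1 and SNHG12 in each of the 4 vehicle (grey) and 4 sorbitol (orange) libraries, with mean ± SD; each panel has its own linear axis from 0. At SNHG3 the far end falls from 36.6 to 21.5 CPM beside a start of 39 and 39.6 CPM, and at SNHG12 the far end rises from 5.17 to 8.37 CPM.

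The ratio of far-end to start counts within a library is the same under any scaling by a single factor per library. The loess offset differs with peak strength and can shift the ratio, which was not computed with it. The ratio was compared at the 8 genes with both peaks, a comparison added after the data were seen. The log2 ratio went from -0.08 ± 0.18 to -0.88 ± 0.19 at SNHG3 and from -2.30 ± 0.14 to -3.15 ± 0.31 at SNHG7, and from -3.35 ± 0.32 to -2.77 ± 0.20 at SNHG12 (vehicle to sorbitol, mean ± SD, n = 4 each). At these 3 genes the groups did not overlap, with differences of -0.79, -0.85 and 0.59. Each had p = 0.0286 in an exact two-sided permutation test, the smallest that 4 against 4 allows, and an adjusted exact p of 0.0762 over the 8 genes, so none passed. SNHG1 differed by -0.21 and SNHG19 by 0.51, with overlap (exact permutation p = 0.143 and 0.0571). SNHG10, SNHG22 and SNHG26 differed by 0.02, -0.02 and -0.16, also with overlap.

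Inside the gene bodies, 3 of the 10 interior peaks were lower and 2 higher, with the same counts without vehicle 4 and sorbitol 4; over all peaks inside genes and away from gene ends 8.58% were lower and 18.9% higher. Some of the 10 lie at ends of snoRNA genes, a lower SNHG7 peak among them. Such peaks are not in that background, and over all gene-end peaks 32.8% were lower and 8.74% higher. SNHG29 (31662 bp, overlapping LRRC75A) held 3 of the interior calls, in both directions. Its peak at chr17:16443748-16444825, centred 5300 bp past the start, had 15.6, 15.5, 15.3 and 16.1 CPM in vehicle 1 to 4 and 7.64, 7.41, 7.11 and 7.45 CPM in sorbitol 1 to 4, a decrease with tight groups and no overlap (log2 fold change -1.16, SE 0.12, adjusted p = 4.61e-11). The peak at chr17:16453189-16453650, 14432 bp past the start, had 6.77, 9.37, 8.32 and 5.62 CPM in vehicle 1 to 4 and 4.08, 4.06, 4.07 and 6.34 CPM in sorbitol 1 to 4. It was called lower with overlapping groups (log2 fold change -0.77, SE 0.17, adjusted p = 0.000368), and sorbitol 4 stood above the other 3. Farther in, at 27358 bp (chr17:16466217-16466472), the direction was the opposite, with 1.18, 0.805, 1.01 and 0.949 CPM in vehicle 1 to 4 and 2.95, 2.23, 1.91 and 2.58 CPM in sorbitol 1 to 4. These low values did not overlap (log2 fold change 1.21, SE 0.28, adjusted p = 0.000801).

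Past the end of SNHG29, within LRRC75A, 3 of 4 peaks were called higher. At 34374 bp from the SNHG29 start a peak rose from 1.09 to 2.22 CPM (log2 fold change 0.96), while the next, at 38488 bp, had 2.45 and 2.51 CPM and was not called (-0.06). At 44186 bp (chr17:16483064-16483282) a peak had 0.591, 0.92, 0.656 and 0.407 CPM in vehicle 1 to 4 and 2.34, 2.55, 2.08 and 1.67 CPM in sorbitol 1 to 4 (log2 fold change 1.63, SE 0.32, adjusted p = 9.24e-05), and at 53001 bp the peak at an end of LRRC75A rose from 11.5 to 15.6 CPM (0.35). The 3 called higher had groups that did not overlap. On chromosome 17 as a whole 3.66% of peaks away from gene ends were called higher and 23.9% lower. The peak at the LRRC75A end is not in that background, and the 4 peaks are neighbours within LRRC75A. The other interior calls were at SNHG7 and SNHG27. The SNHG7 peak (chr9:136726703-136727026), at SNORA17A and SNORA17B, went from 5.59 ± 0.924 to 2.72 ± 0.761 CPM (SD, n = 4 each; log2 fold change -1.12, SE 0.19, adjusted p = 1.11e-05). The SNHG27 peak (chr4:131774156-131774849) went from 7.32 ± 0.444 to 10.7 ± 1.43 CPM (log2 fold change 0.46, SE 0.13, adjusted p = 0.00522), and the groups did not overlap at either gene.

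**Figure D4:**
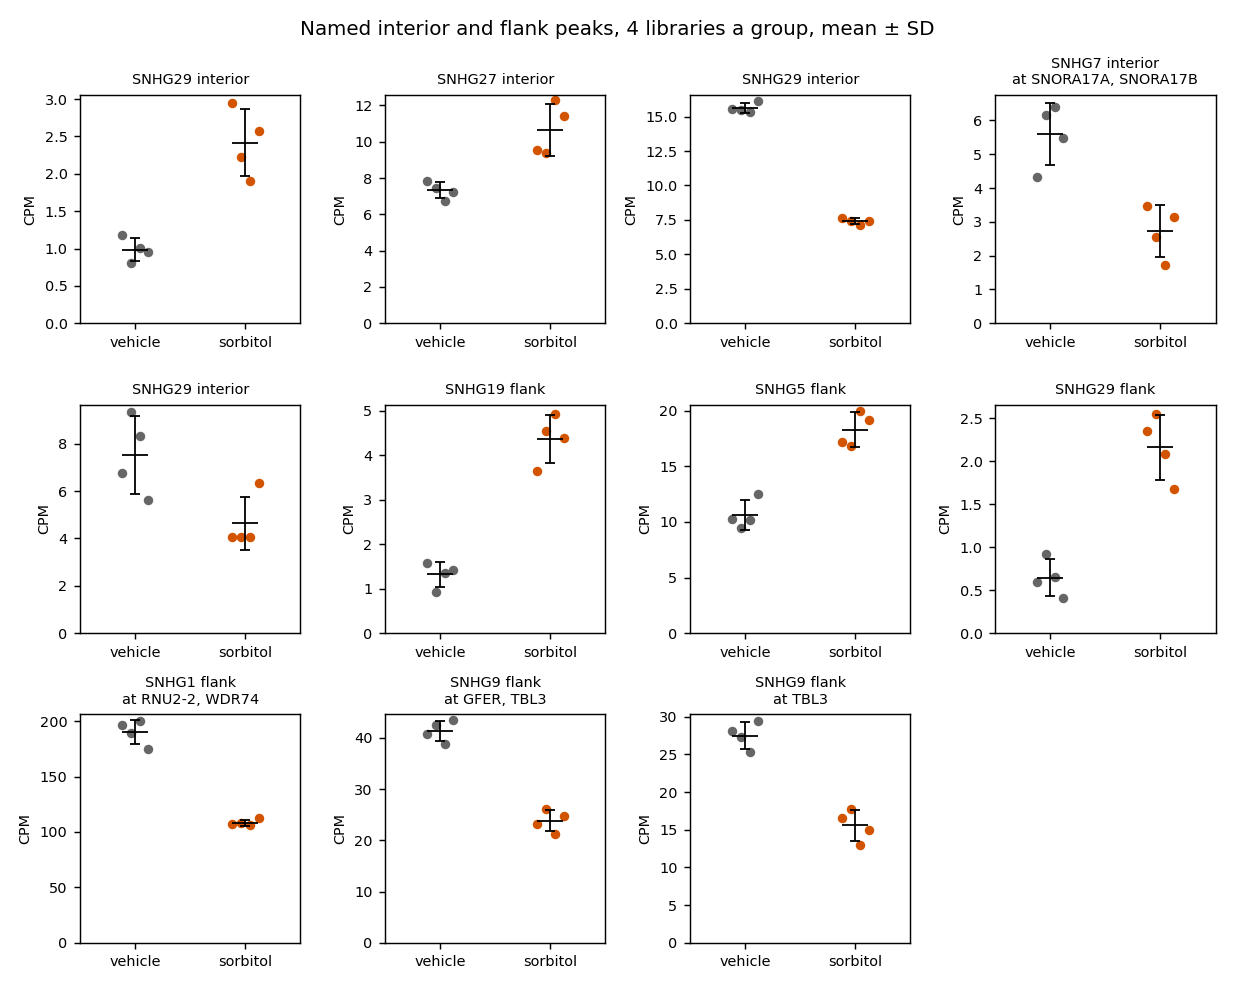
CPM in each of the 4 vehicle (grey) and 4 sorbitol (orange) libraries, with mean ± SD, at the 5 interior peaks called and at the 6 flank peaks with the smallest p, 3 in each direction; each panel has its own linear axis from 0. The groups are apart in 10 panels and overlap in 1, an SNHG29 interior peak where sorbitol 4 (6.34 CPM) reaches into the vehicle range.

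In the 30 kb flanks, 45 of 140 peaks were lower (32.1%) and 11 higher, and without vehicle 4 and sorbitol 4 the counts were 47 and 13; without sorbitol 3, 7 were higher. With scaling on gene-end peaks they were 28 lower and 20 higher, and the flank median kept its sign (-0.21 and -0.03). The flanks divide into 47 peaks that lie at an end of another gene and 93 that lie at none. Ends here are the outer bounds of a gene, so some of the 93 lie at an annotated start inside those bounds. Lower peaks at starts of WDR74, SLC3A2 and PRCD are of this kind. All peaks away from gene ends were taken by the same rule. Of the 47, 23 were lower (48.9%) and 3 higher, beside 32.8% lower over all gene ends. Of the 93, 22 were lower (23.7%) and 8 higher, where all peaks away from gene ends were lower in 8.38% and higher in 17.7%. The shares over all peaks differed with gene density. Of the 51 such flank peaks with at least 3 protein-coding gene ends within 30 kb, 13 were lower (25.5%) and 4 higher, near the 22.1% (9.82% higher) over all peaks in surroundings that dense; this comparison was added after the data were seen. Of the 42 with fewer such ends, 9 were lower (21.4%) and 4 higher, where all peaks with fewer such ends around were lower in 6.54% and higher in 18.8%. Within either class the number of such ends was not matched between SNHG flank peaks and all peaks.

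By side, 12 of the 42 upstream flank peaks were lower and 0 higher, and 20 of the 68 downstream peaks were lower and 9 higher; whether the sides differ was not tested. Of these 9, 3 lie beside SNHG19 and 3 beside SNHG29, so they are in part neighbouring peaks of the same loci. Leaving out the flanks of SNHG9 and SNHG19, both on chromosome 16, left 35 of 117 flank peaks lower and 7 higher. Of the genes, 22 of 29 had at least 1 lower peak and 9 at least 1 higher peak at any place in the locus. SNHG26, SNHG28, SNHG31 and SNHG33 had neither. The loci held from 1 peak (SNHG14) to 13 (SNHG9 and SNHG19), and the like count was not made for other genes. By peak, 13.1% of all tested peaks were lower and 16.0% higher.

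**Figure D5:**
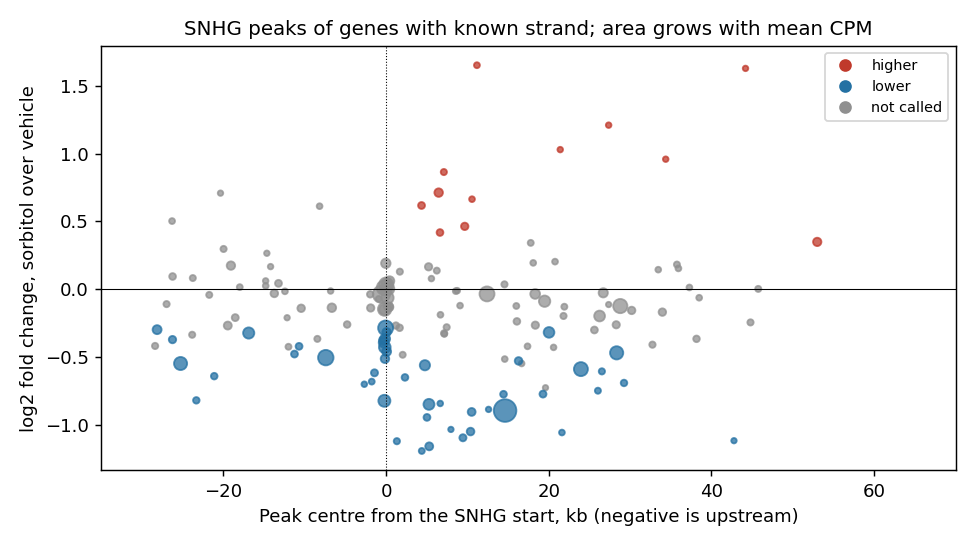
Log2 fold change of the 151 SNHG peaks whose side is known against the distance of the peak centre from the SNHG start in kb (negative is upstream), 1 point per peak with area growing with mean CPM; 1 peak, at SNHG14, lies beyond the axis. All higher calls (red) plotted lie downstream of the start, while lower (blue) and uncalled (grey) peaks lie on both sides. Several of the higher calls are neighbouring peaks of the SNHG19 and SNHG29 loci.

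The flank peak with the smallest p lay beside SNHG1 at WDR74 and RNU2-2, a gene of the U2 spliceosomal RNA (chr11:62840193-62842327). It had 196, 189, 200.2 and 175 CPM in vehicle 1 to 4 and 107, 108, 106 and 112 CPM in sorbitol 1 to 4. Every sorbitol library lay below every vehicle library (log2 fold change -0.89, SE 0.07, adjusted p = 5.54e-14); U2 genes have near-identical copies, so counts there may be split between copies. SNHG1 had 4 lower peaks among 6 in its flanks. In the SNHG9 flanks 8 of 12 peaks were lower, among them the peak at GFER, a mitochondrial import oxidase gene, and TBL3, a small-subunit processome gene (chr16:1983322-1984601), with 40.7, 42.4, 38.9 and 43.4 CPM in vehicle 1 to 4 and 23.2, 26, 21.3 and 24.8 CPM in sorbitol 1 to 4 (log2 fold change -0.87, SE 0.09, adjusted p = 4.80e-11). Another peak at TBL3 (chr16:1971464-1972847) went from 27.5 ± 1.76 to 15.6 ± 2.06 CPM (SD, n = 4 each; log2 fold change -0.90, SE 0.10, adjusted p = 5.88e-10). Neither overlapped. On chromosome 16, 20.1% of peaks away from gene ends were lower and 5.30% higher. Most of the lower SNHG9 flank peaks, both described here among them, lie at ends of other genes and are not in that background. Over all gene-end peaks, 32.8% were lower and 8.74% higher.

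The SNHG32 flanks had 5 lower peaks of 8, and 1 of them lies at HSPA1B, a heat shock protein 70 gene (chr6:31826919-31828079). It had 75.4 ± 3.5 CPM with vehicle and 56.3 ± 2.96 CPM with sorbitol (SD, n = 4 each) with no overlap (log2 fold change -0.50, SE 0.08, adjusted p = 1.56e-06); HSPA1A is a near-identical copy, so this value is uncertain. Beside SNHG30, a peak at AP2B1, an endocytic adaptor subunit gene (log2 fold change -0.77), and a peak within AP2B1 (-1.06) were lower. SNHG14, whose cluster of snoRNAs lies in the imprinted Prader-Willi region, spans 595855 bp, and the table used here held 1 peak in its body and flanks. That peak lies at UBE3A (chr15:25437898-25439564) and went from 22 ± 1.93 to 16 ± 3.38 CPM (log2 fold change -0.53, SE 0.11, adjusted p = 0.000244).

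The 11 higher flank peaks had mean levels from 1.4 to 14.5 CPM. Beside SNHG19 a peak at chr16:2144027-2144360, 11164 bp past the SNHG19 start, had 1.58, 0.92, 1.36 and 1.42 CPM in vehicle 1 to 4 and 3.65, 4.54, 4.94 and 4.39 CPM in sorbitol 1 to 4. The groups did not overlap (log2 fold change 1.65, SE 0.23, adjusted p = 1.52e-07), opposite to the SNHG19 start. Between it and that start lie 5 peaks at or within RAB26, of which the 2 nearest to it were called higher (0.86 and 0.42) and the other 3, the far-end peak of SNHG19 among them, were not called (0.14, 0.17 and -0.28). Beside SNHG5 a peak 6460 bp past the start (chr6:85671681-85672866) had 10.2, 9.43, 10.2 and 12.5 CPM in vehicle 1 to 4 and 17.2, 16.8, 20.03 and 19.2 CPM in sorbitol 1 to 4. It too rose without overlap (log2 fold change 0.71, SE 0.11, adjusted p = 1.66e-06), while the SNHG5 start was not called.

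Other genes of the snoRNA pathway were compared at their own ends. The lists are not fully separate, since NOP56 and DKC1 are both protein-coding hosts and snoRNA particle proteins. The SNHG3 start peak also lies at RCC1, a listed protein-coding host, and so is counted again there. Among other noncoding snoRNA hosts (GAS5, ZFAS1, DANCR, EPB41L4A-AS1 and MEG8, the last with no gene-end peak in the table used here), 1 of 5 gene-end peaks was lower and 0 higher (median -0.10). The lower one was DANCR (chr4:52711982-52713025; 68.3 ± 4.69 to 56 ± 4.21 CPM, log2 fold change -0.37, adjusted p = 0.000367). The 32 listed protein-coding snoRNA hosts, which include the ribosomal protein gene RPSA, had 30 lower and 0 higher calls among 57 gene-end peaks (median -0.28). EIF4A1, a translation initiation helicase, had the smallest p (chr17:7579068-7579917; 23.9 ± 0.953 to 13.2 ± 1.54 CPM, log2 fold change -0.94, adjusted p = 4.92e-10). Of the proteins that form or assemble snoRNA particles (18 genes, fibrillarin and dyskerin among them), 16 of 24 peaks were lower and 0 higher (median -0.47), led by RUVBL2, an assembly ATPase (chr19:48992736-48994041; 39.3 ± 1.94 to 23.8 ± 1.9 CPM, log2 fold change -0.81, adjusted p = 4.25e-10). Of nonsense-mediated decay factors (10 genes), 8 of 11 were lower and 0 higher (median -0.41), led by SMG6, the decay endonuclease (chr17:2303083-2304309; 33.5 ± 2.71 to 23.5 ± 0.843 CPM, log2 fold change -0.60, adjusted p = 8.86e-07). At these 4 named peaks the groups of 4 libraries did not overlap. Each also lies at an end of other genes. These are CD68, SENP3-EIF4A1 and SNORA67 at the EIF4A1 peak and GYS1 at the RUVBL2 peak. They are SRR at the SMG6 peak, and MIR4449 and SNORA26 at the DANCR peak. Starts and far ends were not separated in these lists, so a named peak need not be the promoter of the listed gene. For the protein-coding lists the like background is all protein-coding gene ends (39.6% lower, 6.49% higher, median -0.21), and for the noncoding hosts all long noncoding RNA gene ends (26.8% and 9.92%, median -0.12). With scaling on gene-end peaks the lower and higher calls were 22 and 3 for the protein-coding hosts, 11 and 1 for the snoRNA particle proteins, 4 and 0 for the decay factors, and 1 and 1 for the noncoding hosts, whose median turned to 0.07. Without vehicle 4 and sorbitol 4 they were 36, 19, 9 and 3 lower, and 0 higher in each list.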

How the data were processed

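The deposited table holds raw ATAC-seq counts per peak, whole numbers and not normalized, from 75 bp paired-end Omni-ATAC libraries, per the file headers and the labels' protocols; each column was assigned to its library by treatment and replicate number. The submitters' processing notes name Trim Galore 0.6.10, BWA 0.7.17, SAMtools 1.22, MACS2 2.2.9.1, bedtools and hg38, with no role or order; how peaks were merged, whether reads or fragments were counted and whether coordinates count from 0 or 1 are not given in the sources used here. RefSeq genes and promoters (GRCh38.p14) gave positions. No markers of the cell line were checked, since accessibility is not RNA.

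All 4 against 4 libraries were fitted over the whole table in edgeR 4.0.16 (R 4.3.3, limma 3.58.1): filterByExpr with a minimum count of 10 and a total of 15 (49 of 129536 peaks dropped), TMM, quasi-likelihood test, Benjamini-Hochberg adjustment over 129487 peaks, threshold 0.05. Member peaks had at least 14.5 counts on average per library (median 82.9). The fit was tested on simulated data. Named in the text were, for each SNHG gene, its gene-end peak of highest mean CPM (in full where called without overlap or among the 5 highest), the 3 interior and 3 flank peaks of smallest p in each direction, and the gene-end peak of smallest p in each list; the SNHG32 start in full, the LRRC75A, RAB26, HSPA1B, AP2B1 and UBE3A peaks and those marked in the text were picked after their values were seen. Members, lists and rules were chosen with earlier results of these data known. Nothing in the labels says that equal replicate numbers pair libraries, and the main fit did not pair them. Alternatives tried were DESeq2 1.42.0 (test and size factors), library totals, a loess offset, TMM on gene-end peaks, filters, distances, a 0.01 threshold, leaving out libraries and blocks.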

Additional observations from a re-analysis of the deposited data

Results flagged for a closer look

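At the SNHG21 start peak, vehicle 4 had 44.7 CPM against 50.1 to 50.6 CPM in the other 3 vehicle libraries, a gap wide for a group of 4 by Dixon's criterion. At the SNHG29 interior peak 14432 bp past the start, sorbitol 4 had 6.34 CPM against 4.06 to 4.08 CPM in the other 3 sorbitol libraries. These were 2 of 52 groups examined, and chance alone flags about 2.6 at this criterion.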

How the results depend on the processing

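Over all tested peaks, a mean of at least 50 counts left 21406 calls (10312 higher, 11094 lower), a threshold of 0.01 left 23272 (12239 and 11033), and TMM on gene-end peaks gave 33889 higher and 8719 lower. SNHG gene-end calls were 5 higher and 7 lower with that TMM, 5 higher with a loess offset, 2 higher with library totals or with a mean of at least 50 counts, 25 (24 lower) with ends within 2 kb, 0 higher with ends within 500 bp, and 2 (2 lower, 0 higher) over peaks away from other gene ends. Interior peaks had 1 higher call at a mean of at least 50 counts. SNHG flank calls were 20 higher and 28 lower with TMM on gene-end peaks, 34 (4 higher) at a mean of at least 50 counts, 6 higher at 0.01, 24 (5 higher, 19 lower) within 10 kb, and 30 (22 lower) over peaks away from other gene ends; without 1 library at a time the higher flank calls ranged from 7 (without sorbitol 3) to 13. The filters, narrower distances and smaller sets test or count fewer peaks by construction; for the scalings the cause was not tested. The SNHG31 start turned to 0.18 (adjusted p = 0.0251) with the loess offset. With a block on the replicate number, 34444 peaks were called against 37717 without it, with 14 lower SNHG gene-end peaks in each fit. The labels do not say that equal numbers pair libraries. Deviations of same-numbered libraries from their group means had correlations from -0.127 to 0.00652. Without 1 library at a time 30555 to 38658 peaks were called, and the far-end to start differences ranged from -0.87 to -0.70 at SNHG3, from -0.99 to -0.75 at SNHG7 and from 0.44 to 0.68 at SNHG12, with an exact permutation p of 0.0571, the smallest that 3 against 4 allows. Of 775 values for 41 named peaks under 19 alternatives, 738 kept the call or its absence, 24 lost the call, 12 gained one and 1 reversed; the sign differed in 48 values, at 13 peaks, 0 of them called in the reported fit. The median member had 82.9 counts per library, which limits how small a change can be called.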
